A study of Mus musculus with 11 samples.

Results

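The core clock repressors and the clock-controlled output genes were followed in 11 libraries of mouse cerebral cortex, 10 of them taken after a photothrombotic stroke. The genes were chosen by symbol, and all 10 of 10 were found among the 22377 genes of the expression table. The members are Per1, Per2, Per3, Cry1, Cry2, Nr1d1, Nr1d2, Dbp, Tef and Ciart. All 10 passed the limit on low values used in the tests below, a mean of at least 1 CPM, the tag count scaled to the library total. None of the symbols needed a choice between duplicate rows.

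The animals were male C57BL/6N mice, and the design text names ages of 8 to 10 and of 65 to 85 weeks without tying an age to a library. Photothrombosis (PT), in which the dye rose bengal is activated by light to close cortical vessels, was made on the left side. The libraries cover 5 states. These are 7 d and 1 m after PT, each without and with the antiseizure drug levetiracetam (LEV), and 2 m, when LEV had been withdrawn for 2 weeks. Each state has 1 library of the infarcted side and 1 of the non-infarcted side, and 1 further library is of naive, untreated cortex. All mice after PT share the dye and the lesion, and no library of PT at 2 m without LEV was analysed here. The design text, which has LEV start 1 month after PT in the drinking water at 5 mg/mL for 2 weeks and then stop for 1 week, differs from the labels, and the labels are followed here. The labels name neither the number of mice behind a library, nor whether both sides of a state came from the same mouse, nor the hour at which tissue was taken.

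Transcripts were counted by CAGE, which captures the capped 5′ end of an RNA, so that a CPM value counts transcript starts and is not scaled by gene length. Library totals ran from 12928291 tags in the naive library to 21000367 in the non-infarcted library of 1 m with LEV, and between 92.3% and 97.3% of tags lay in genes. A count of 3 tags corresponds to 0.143 to 0.232 CPM, and the clock genes were far above it, with between 177 and 3979 tags per library. The 5 markers of cortical excitatory neurons summed to 1630 to 3188 CPM per library. Markers of neighbouring regions were present too, with sums of 326 to 613 CPM for striatum, 96.9 to 138 CPM for hippocampus and 58.7 to 94.8 CPM for thalamus, so that the markers do not by themselves identify the labelled cortex. Markers of choroid plexus summed to 364 CPM in the naive library and 204 CPM in the non-infarcted library of 1 m with LEV, against 14.9 to 33.2 CPM in the other 9 libraries. In such bulk tissue, fewer cells of a type and less RNA per cell cannot be told apart.

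The circadian clock is a daily feedback loop of transcription. The activators BMAL1 (gene Arntl) and CLOCK, or in forebrain also NPAS2, bind E-box sequences and switch on the Per and Cry genes, whose proteins return to the nucleus and repress the activators. REV-ERB alpha and beta (Nr1d1 and Nr1d2) are nuclear receptors that repress Arntl in a second loop, CHRONO (Ciart) is a further repressor of the activators, and DBP and TEF are PAR bZIP factors that carry the rhythm to output genes through D-box sequences. In cortex these transcripts rise and fall over the day, and Per1 and Per2 also respond to glucocorticoids and to neuronal activity.

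Promoter sequences are shown for 4 members, chosen because they hold the clearest copies of the clock's own binding letters. The RefSeq windows (GRCm38.p6) run over the 250 bases before a transcript start, and 9 of the 10 members matched, with 11 windows between them. In 9 of the 11 windows, bases at or just after the start matched a GENCODE transcript of the gene. Per2 had no entry. Capitals mark the motifs searched on both strands: the E-box CACGTG, the E-prime box CACGTT, the D-box TTANNTAA, the TGACG core of the cAMP response element, and the core AGGTCA of the RORE, to which REV-ERB and ROR bind. No hits of different motifs overlapped. The windows shown are chr3:95882229-95882478 on the minus strand for Ciart, with 3 E-boxes, chr11:69098699-69098948 on the plus strand for Per1 (the first of its 2 windows), chr10:85185055-85185304 on the minus strand for Cry1 and chr4:151044666-151044915 on the minus strand for Per3, with 2 D-boxes. Each runs 5′ to 3′.
Ciart: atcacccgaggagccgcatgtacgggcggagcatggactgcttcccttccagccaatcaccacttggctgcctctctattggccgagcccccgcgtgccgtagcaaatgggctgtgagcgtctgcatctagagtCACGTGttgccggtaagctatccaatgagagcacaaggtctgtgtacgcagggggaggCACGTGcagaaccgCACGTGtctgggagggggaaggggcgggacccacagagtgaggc
Per1: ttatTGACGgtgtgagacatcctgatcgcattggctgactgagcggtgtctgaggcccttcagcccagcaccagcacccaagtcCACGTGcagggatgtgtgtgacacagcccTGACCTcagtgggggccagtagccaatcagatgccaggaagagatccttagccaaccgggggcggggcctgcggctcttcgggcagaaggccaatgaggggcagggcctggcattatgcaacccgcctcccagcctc
Cry1: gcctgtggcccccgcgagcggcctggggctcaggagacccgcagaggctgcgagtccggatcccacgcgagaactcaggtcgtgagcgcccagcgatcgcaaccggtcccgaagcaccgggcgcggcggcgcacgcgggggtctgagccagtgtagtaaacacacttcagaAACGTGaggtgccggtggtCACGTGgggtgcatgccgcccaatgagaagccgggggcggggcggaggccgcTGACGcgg
Per3: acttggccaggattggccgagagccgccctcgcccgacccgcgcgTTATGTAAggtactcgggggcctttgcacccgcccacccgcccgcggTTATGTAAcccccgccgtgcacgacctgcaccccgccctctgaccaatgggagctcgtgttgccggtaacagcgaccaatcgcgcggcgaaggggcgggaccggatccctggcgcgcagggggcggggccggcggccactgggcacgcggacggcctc

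The E-box was found in 5 of the 11 windows, belonging to Ciart, Per1, Cry1 and both windows of Tef, while 6.02% of 32851 windows of the same length over all genes hold it. Ciart carries it at 116, 58 and 44 bases before the start. Cry1 has an E-box at 60 bases and an E-prime box, read as AACGTG on the printed strand, at 79 bases. The E-prime box was also found before Cry2 and Nr1d1, so that it is in 3 of the 11 windows, against 3.85% of all windows. The D-box was found before Per3, with 2 copies at 205 and 158 bases, and in 1 window of Tef, and 5.43% of all windows hold it. The cAMP core was in 4 windows, of Per1, Cry1 and Cry2, with a background of 17.8%, and the RORE core was in 2, of Per1 and Nr1d2, with a background of 14.0%. The window of Dbp held none of these letters. A match describes the letters alone and is not a measured binding site.

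The first comparison asked whether the 5 states after PT differed, with the side of the brain as a second factor. Of the 10 clock genes 5 differed between states, and in 3 of them (Per2, Per3 and Ciart) the highest level was at 7 d with LEV and the lowest at 1 m with LEV, on both sides of the brain. Per2 fell from 41.3 to 19.8 CPM between these states on the non-infarcted side, and Ciart from 32.0 to 11.95 CPM. Cry1 was instead lowest at 7 d with LEV and highest at 2 m after withdrawal, on both sides. Differences were tested with limma on log2(CPM + 1), and a gene was called at a Benjamini-Hochberg adjusted p below 0.05 over all genes. Of all 16229 genes tested, 27.0% were called by the same test, against 5 of 10 clock genes. The error in this test is the disagreement between the sides within a state, with 4 residual degrees of freedom. Limma moderates it by the spread of other genes, with 5.05 prior degrees of freedom. With 1 library per state and side the p-values say nothing of the spread between mice. A difference in state and a difference in the hour of collection cannot be told apart.

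**Figure D1:**
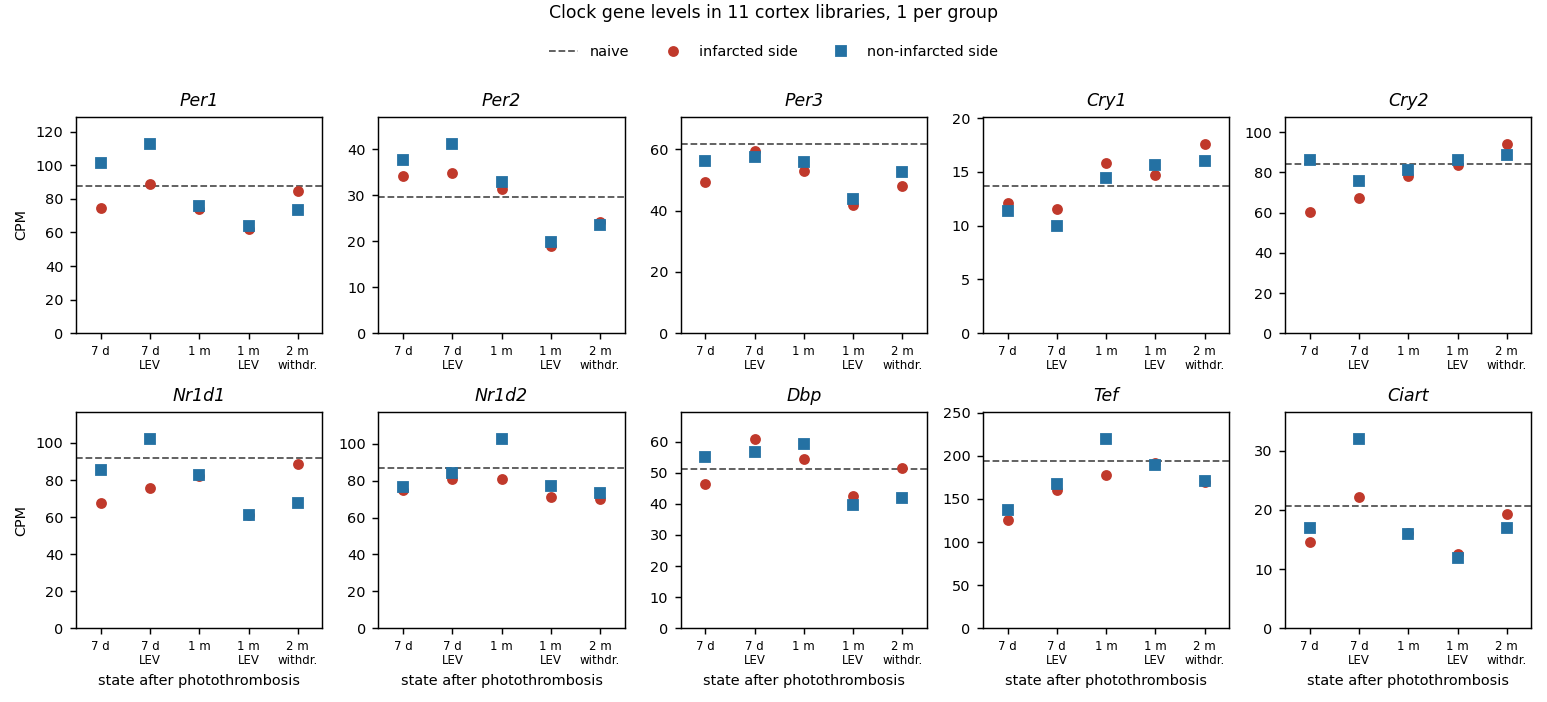
Expression of the 10 clock genes in CPM (vertical axis, from 0) in each state after photothrombosis (horizontal axis), 1 point per library, with circles for the infarcted side, squares for the non-infarcted side and a dashed line for the naive library. Per1, Per2, Per3, Nr1d1 and Ciart have their 2 lowest points at 1 m with LEV.

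Among the Period genes, whose proteins form the repressor complex with the cryptochromes, Per2 differed most clearly between states. The naive library held 29.7 CPM of Per2. At 7 d Per2 stood at 34.3 CPM on the infarcted and 37.6 CPM on the non-infarcted side, and at 7 d with LEV at 34.9 and 41.3 CPM. At 1 m it stood at 31.4 and 32.8 CPM, at 1 m with LEV at 19.0 and 19.8 CPM, and at 2 m after withdrawal at 24.3 and 23.6 CPM. The sides of a state lay close together and the states apart: every library with LEV at 1 m or after its withdrawal was below the naive library, and every other one above it. The 5 state means of Per2 spanned 0.94 on the log2 scale, with an adjusted p of 0.00291 by limma. It remained called in all 12 alternatives tried, with adjusted p from 0.00251 to 0.0490.

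Per1, which is also induced by light and by glucocorticoids, also had its highest state at 7 d with LEV and its lowest at 1 m with LEV on each side, with wider gaps between the sides. Its level was 87.8 CPM in naive cortex, 74.6 and 101 CPM at 7 d on the infarcted and non-infarcted side, and 89.1 and 113 CPM at 7 d with LEV. It was then 74.2 and 75.9 CPM at 1 m, 62.1 and 63.8 CPM when LEV was given at 1 m, and 84.5 and 73.6 CPM at 2 m. The 2 libraries of 1 m with LEV were the lowest of all 11, but the state means spanned 0.66 with a limma adjusted p of 0.0509, just above the threshold. Per1 was called in 5 of the 12 alternatives, which gave adjusted p from 0.0192 to 0.265.

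Per3, the Period gene least needed for rhythm in mice, had its highest level of the 11 libraries in naive cortex at 61.8 CPM. The infarcted and non-infarcted sides held 49.2 and 56.3 CPM at 7 d, 59.3 and 57.5 CPM at 7 d with LEV, and 52.8 and 55.8 CPM at 1 m. They held 41.9 and 43.9 CPM at 1 m with LEV and 48.0 and 52.5 CPM at 2 m. Only the 1 m LEV libraries stood clear of the rest. The span of the state means was 0.44 with a limma adjusted p of 0.0473, and 6 of the 12 alternatives ended the call, with adjusted p up to 0.511.

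The cryptochromes did not share this order. Cry1 held 13.7 CPM in the naive library, 12.1 and 11.4 CPM at 7 d on the infarcted and non-infarcted side, and 11.5 and 9.94 CPM at 7 d with LEV. It then held 15.8 and 14.4 CPM at 1 m, 14.7 and 15.6 CPM when LEV was given at 1 m, and 17.6 and 16.0 CPM at 2 m. All 4 libraries of 7 d were below the naive library and all 6 later ones above it, so that the lowest state was 7 d with LEV and the highest 2 m after withdrawal on each side. The span of Cry1 was 0.60 with a limma adjusted p of 0.0227. The call was lost without 7 d with LEV (limma adjusted p 0.0829) and without 1 m with LEV (0.0664).

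Cry2, the second cryptochrome, ranged from 60.5 CPM on the infarcted side at 7 d to 94.3 CPM on the infarcted side at 2 m, with 84.3 CPM in naive cortex. Its infarcted side was low at 7 d, without and with LEV (60.5 and 67.5 CPM), and from 78.3 to 94.3 CPM later. The non-infarcted side stayed between 75.9 and 88.7 CPM. The state means spanned 0.35, and the limma adjusted p was 0.200.

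Of the REV-ERB receptors, Nr1d1 held 91.8 CPM in naive cortex, 67.5 and 85.4 CPM at 7 d on the infarcted and non-infarcted side, and 75.4 and 102 CPM at 7 d with LEV. It held 81.9 and 82.6 CPM at 1 m, 61.2 and 61.1 CPM when LEV was given at 1 m, and 88.6 and 67.6 CPM at 2 m. Its lowest libraries were the 2 of 1 m with LEV, as for the Period genes, but the sides of a state parted more, most at 7 d with LEV. The span of 0.52 was not called by limma, with an adjusted p of 0.198. Nr1d2 moved less: it lay between 69.9 and 84.3 CPM in every library after PT but the non-infarcted one at 1 m, which held 103 CPM, and naive cortex held 87.0 CPM. Its span of 0.34 had a limma adjusted p of 0.112.

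The output factors Dbp and Tef differed from each other. Dbp, a sensitive reporter of clock phase in many tissues, held 51.2 CPM in naive cortex, 46.5 and 55.1 CPM at 7 d on the infarcted and non-infarcted side, and 60.9 and 56.7 CPM at 7 d with LEV. It held 54.4 and 59.2 CPM at 1 m, 42.6 and 39.8 CPM when LEV was given at 1 m, and 51.5 and 41.9 CPM at 2 m. The state of 1 m with LEV was the lowest on each side, with a span of 0.50 and a limma adjusted p of 0.0641. Tef, by contrast, had its lowest levels at 7 d, with 126 and 137 CPM on the infarcted and non-infarcted side. It held 160 and 168 CPM at 7 d with LEV, 178 and 219.8 CPM at 1 m, 191 and 189 CPM when LEV was given at 1 m, and 169.8 and 170.4 CPM at 2 m, beside 194 CPM in naive cortex. The 4 libraries of 7 d were the lowest of the 11. The span of Tef was 0.59 with a limma adjusted p of 0.0165. Without the libraries of 7 d without LEV the span was 0.27 and the call was lost (limma adjusted p 0.160), and it was lost without 1 m with LEV as well (0.0651).

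Ciart had the widest span of the 10, at 1.06 on the log2 scale, with a limma adjusted p of 0.0151. Without 7 d with LEV the span was 0.52 (limma adjusted p 0.0835), below the 0.86 of Per2, and without 1 m with LEV it was 0.72 (0.0800), so that both the call and the rank depend on single states. The naive library held 20.7 CPM. At 7 d the infarcted and non-infarcted sides held 14.6 and 17.01 CPM, at 7 d with LEV 22.3 and 32.0 CPM, and at 1 m 16.1 and 16.0 CPM. At 1 m with LEV they held 12.6 and 11.95 CPM and at 2 m 19.3 and 16.9 CPM. The 2 libraries of 7 d with LEV were the highest of the 11 and the 2 of 1 m with LEV the lowest. The promoter of Ciart is the one printed above with 3 E-boxes.

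Leaving out 1 state changed which genes were called, except for Per2. Without the libraries of 1 m with LEV, Per2 alone was called by limma, with a span of 0.64 and an adjusted p of 0.0490, and without those of 7 d with LEV Per2 and Tef were. Without 1 m, the call of Per3 was lost (limma adjusted p 0.0591) and 4 remained. Without 7 d, Tef was lost while Per1 and Dbp were gained, and without 2 m the 5 calls remained and Per1 and Dbp were gained. Marker levels also moved with the 1 m LEV libraries: the 5 cortical excitatory neuron markers summed to 2827 and 3188 CPM there on the infarcted and non-infarcted side, above the 1630 to 2421 CPM of the other 9 libraries. The choroid plexus sums there were 33.2 and 204 CPM. The part of these in the clock gene levels was not tested.

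Some orders were counted over all members after the values had been seen. Of the 10, 6 members (Per1, Per2, Per3, Nr1d1, Dbp and Ciart) had 1 m with LEV as the lowest of the 5 states on each side, as had 17.1% of all genes tested. Without Dbp, 5 of them had the 2 libraries of 1 m with LEV as the lowest of all 11, against 11.1% of all genes. A group of 4 (Per1, Per2, Per3 and Ciart) had 7 d with LEV as the highest state on each side, against 5.37%. The same 4 with Cry1 and Nr1d2, 6 in all, had both the same highest and the same lowest state on each side, against 20.9%. The median span between states was 0.55 for the 10 clock genes and 0.46 for all genes, and the median of the mean absolute side difference was 0.15 against 0.19. Among the 10938 genes with a mean of at least 10 CPM, which all 10 members reach, these medians were 0.44 and 0.16.

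**Figure D2:**
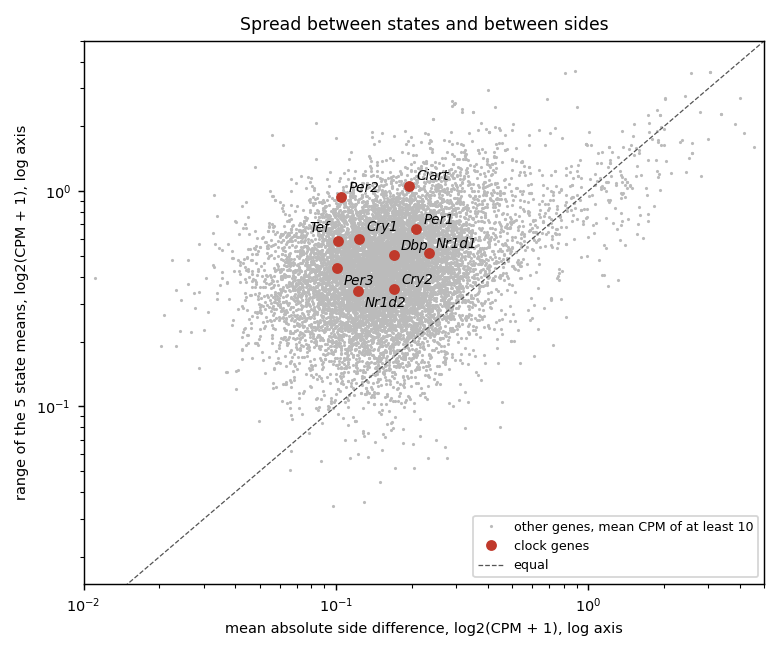
Range of the 5 state means (vertical, log axis) against the mean absolute difference between the sides (horizontal, log axis), both in log2(CPM + 1), for the 10 clock genes and for other genes with a mean of at least 10 CPM, with a dashed line of equality. All 10 clock genes lie above the line, as do 92.8% of the genes with a mean of at least 10 CPM, and Ciart (1.06) and Per2 (0.94) are the highest of the 10.

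The second comparison asked whether the infarcted side differed from the non-infarcted side over the 5 states. No clock gene did: 0 of 10 were called by limma, while 7.00% of all genes were, 6.21% higher and 0.789% lower. At an unadjusted p below 0.05 the count was 0 of 10 too, against 23.3% of all genes, and edgeR's quasi-likelihood test on tags also called 0. The infarcted and non-infarcted libraries overlapped for every member, and groups that did not overlap made up 3.23% of all genes with the infarcted side higher and 0.450% with it lower.

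The estimates, infarcted minus non-infarcted on the log2 scale, were small. They ran from -0.14 for Cry2 (SE 0.08) to 0.09 for Cry1 (SE 0.08), with a median of -0.09 against 0.01 for all genes, and limma adjusted p lay between 0.292 and 0.889. Of the 10, 8 were below 0, with Cry1 and Dbp above. Nr1d2 was lower on the infarcted side in all 5 states, as were 7.83% of all genes, by 0.12 on average (SE 0.06, limma adjusted p 0.292).

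**Figure D3:**
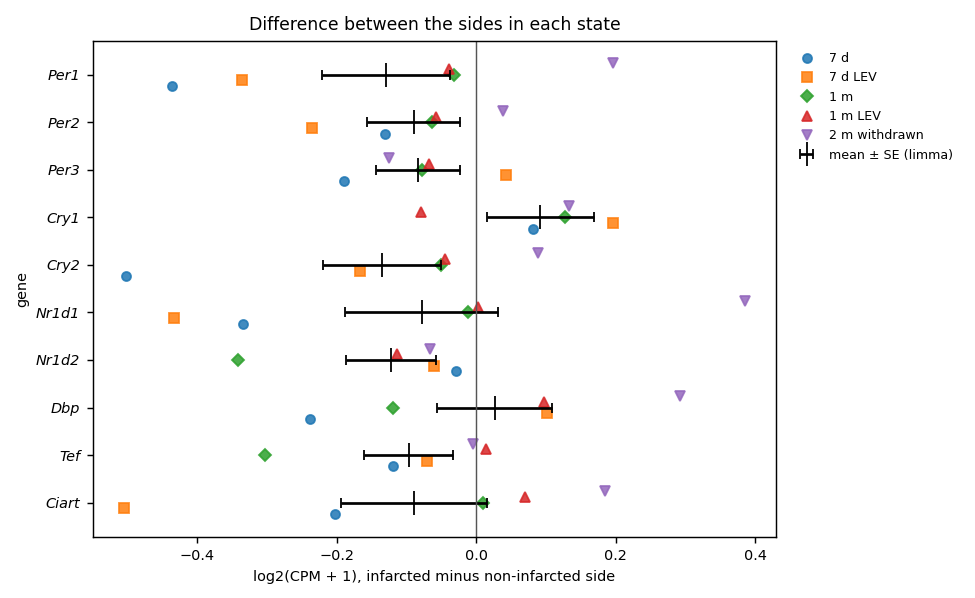
Difference between the infarcted and the non-infarcted side in log2(CPM + 1) (horizontal axis) for each clock gene (vertical axis), with a coloured symbol for each of the 5 states and a black bar for the mean over states with its standard error from limma. The points at 7 d and 7 d with LEV lie left of most others for Per1, Cry2 and Nr1d1, and those at 2 m lie right of 0 for Nr1d1 and Dbp.

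Within single states some sides parted further, without a replicate to test it. At 7 d the infarcted side was lower by 0.50 for Cry2, by 0.44 for Per1 and by 0.33 for Nr1d1 on the log2 scale. At 7 d with LEV it was lower by 0.51 for Ciart and by 0.43 for Nr1d1. At 2 m the sign turned for these genes, with Nr1d1 higher on the infarcted side by 0.39 and Dbp by 0.29. The infarcted libraries at 7 d, without and with LEV, also held the most microglia and macrophage marker tags, at 513 and 486 CPM summed over 5 markers, against 189 to 232 CPM in the other infarcted libraries and 127 to 147 CPM on the non-infarcted side. Their excitatory neuron sums were 1630 and 1858 CPM against 2010 and 2421 CPM on the other side. The part of these in the side differences was not tested.

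Set against the naive library, no clock gene was called on either side. On the infarcted side 0 of 10 were called by limma, with 0.00611% of all genes called, and on the non-infarcted side 0 of 10, with 0% called. At an unadjusted p below 0.05, 624 and 151 genes passed over the whole table (3.81% and 0.945%), but none of the clock genes. On the infarcted side 9 of 10 estimates were below 0, from -0.30 for Per3 to 0.05 for Cry1, with a median of -0.20 against 0.03 for all genes. On the non-infarcted side 9 of 10 were below 0 as well, from -0.22 for Nr1d1 to 0.01 for Per2, with a median of -0.08 against 0.004. The same single naive library bounds the tests of both sides, so that their counts are not separate evidence. Its choroid plexus sum stood apart as given above.

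Time after PT was compared within each side, 1 m minus 7 d, over the libraries with and without LEV, which leaves 1 residual degree of freedom. The spread was thus mostly borrowed from other genes, with 45.3 prior degrees of freedom on the infarcted and 13.9 on the non-infarcted side. Averaged over the libraries with and without LEV, Per1, Per2 and Ciart were called lower at 1 m on the non-infarcted side, and Per2 on the infarcted side. On the non-infarcted side 3 of 10 were called by limma, all lower at 1 m, against 12.4% of all genes, with 5.98% higher and 6.45% lower. Per1 fell by 0.61 (SE 0.15, limma adjusted p 0.0151), Per2 fell by 0.61 (SE 0.18, limma adjusted p 0.0384) and Ciart fell by 0.72 (SE 0.22, limma adjusted p 0.0475). On the infarcted side 1 of 10 was called, against 16.7% of all genes, with 5.27% higher and 11.4% lower: Per2 fell by 0.49 (SE 0.17, limma adjusted p 0.0356). On the non-infarcted side Per1 was called in all 7 alternatives, and Per2 and Ciart in 4 of 7 each, with adjusted p up to 0.0648 and 0.0740. Centring on the median gene lost both and left Per1 lower and Cry1 higher. The call of Per2 on the infarcted side held in 1 of 7 alternatives, with adjusted p from 0.0170 to 0.166. With TMM scaling the non-infarcted count was 5, of which 3 were lower and 2 (Cry1 and Tef) higher, and on the infarcted side Tef replaced Per2.

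Cell type markers moved over the same interval. On the infarcted side limma called 5 of 5 striatum and 3 of 5 inhibitory neuron markers higher at 1 m, and 4 of 5 microglia and macrophage, 3 of 5 astrocyte and 3 of 5 endothelial and mural markers lower; 1 further endothelial and mural and 1 excitatory neuron marker were higher. The striatum sum there was 326 and 481 CPM at 7 d, without and with LEV, and 531 and 613 CPM at 1 m. For the non-infarcted side limma called 1 of 5 striatum, inhibitory neuron and endothelial and mural markers each higher, 1 of 5 astrocyte and microglia and macrophage markers each lower, and excitatory neuron markers 1 higher and 1 lower. The part of these in the time differences was not tested.

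The ratios of 1 m to 7 d were further from 1 with LEV than without for Ciart, Per2 and Per1 on the non-infarcted side. The ratio of Ciart at 1 m to that at 7 d was 0.373 (95% interval 0.321 to 0.433) with LEV and 0.939 (0.786 to 1.12) without, where intervals are exact and cover counting error only. Per2 gave 0.479 (0.424 to 0.540) with LEV and 0.872 (0.773 to 0.984) without. For Per1 the ratios were 0.566 (0.528 to 0.606) and 0.749 (0.693 to 0.808). On the infarcted side Per2 gave 0.543 (0.476 to 0.620) with LEV and 0.915 (0.806 to 1.04) without. Among the genes not called, Tef had an estimate of 0.38 on the infarcted (limma adjusted p 0.0517) and 0.43 on the non-infarcted side (0.0865), and Cry1 of 0.34 (0.213) and 0.46 (0.0784). Without LEV, the ratio of Tef at 1 m to 7 d was 1.41 (1.33 to 1.498) on the infarcted and 1.60 (1.52 to 1.69) on the non-infarcted side.

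LEV was compared with no LEV on each side over both times. Averaged over 7 d and 1 m no clock gene was called by limma, with 0 of 10 on the infarcted side, where 0.518% of all genes were called, and 0 of 10 on the non-infarcted side, with 0.00628%. At an unadjusted p below 0.05 only Per2 on the infarcted side passed, with an estimate of -0.34 (SE 0.17, limma adjusted p 0.588), where 8.35% of all genes passed, and none on the non-infarcted side, where 5.01% did. By edgeR, 0 were called on each side. The averages cover differences of opposite sign at the 2 times.

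At 7 d most clock genes were higher with LEV, and at 1 m most were lower. The ratio of Ciart with LEV to that without was 1.52 (95% interval 1.29 to 1.79) on the infarcted and 1.88 (1.64 to 2.17) on the non-infarcted side at 7 d. At 1 m it was 0.783 (0.650 to 0.944) and 0.748 (0.622 to 0.901). For Per2 the ratios were 1.02 (0.905 to 1.14) and 1.10 (0.987 to 1.22) at 7 d, and 0.604 (0.524 to 0.696) and 0.602 (0.526 to 0.689) at 1 m. Per2 thus differed at 1 m alone beyond counting error, and by nearly the same ratio on each side. Past 1.5-fold, Ciart was the only clock gene at 7 d on either side, where 2.61% of all genes were so much higher on the infarcted side and 1.82% on the non-infarcted side. At 1 m Per2 was past 1.5-fold lower on the infarcted side, with 7.70% of all genes, and on the non-infarcted side, with 4.48%.

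The other members with the low level at 1 m had ratios nearer to 1 than those of Ciart at 7 d and of Per2 at 1 m. Dbp with LEV stood at 1.31 (1.19 to 1.44) and 1.03 (0.943 to 1.12) of the level without at 7 d, and at 0.782 (0.708 to 0.865) and 0.672 (0.609 to 0.741) at 1 m, on the infarcted and non-infarcted side. Nr1d1 stood at 1.12 (1.03 to 1.21) and 1.197 (1.12 to 1.28) at 7 d, and at 0.747 (0.688 to 0.811) and 0.739 (0.682 to 0.801) at 1 m. For 7 of the 10 (the 3 Period genes, both REV-ERB genes, Dbp and Ciart) the ratio was above 1 at 7 d and below 1 at 1 m on each side, and an opposite sign of this kind was found for 10.9% of all genes, and the reverse for 6.16%. At 7 d the interval included 1 for Per2 on both sides and for Dbp on the non-infarcted side. So it did for Per3 on the non-infarcted side, at 1.02 (0.937 to 1.11), and for Nr1d2 on the infarcted side, at 1.07 (0.994 to 1.16).

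Tef and the cryptochromes behaved otherwise. Tef was higher with LEV at 7 d, at 1.27 (1.199 to 1.34) and 1.23 (1.16 to 1.29), and at 1 m stood at 1.08 (1.02 to 1.13) and 0.862 (0.822 to 0.904). Cry1 had no interval that excludes 1 at either time. Cry2 differed in opposite directions at 7 d, at 1.12 (1.02 to 1.22) on the infarcted and 0.882 (0.820 to 0.948) on the non-infarcted side, and its ratios at 1 m were 1.07 (0.987 to 1.15) and 1.06 (0.985 to 1.14).

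**Figure D4:**
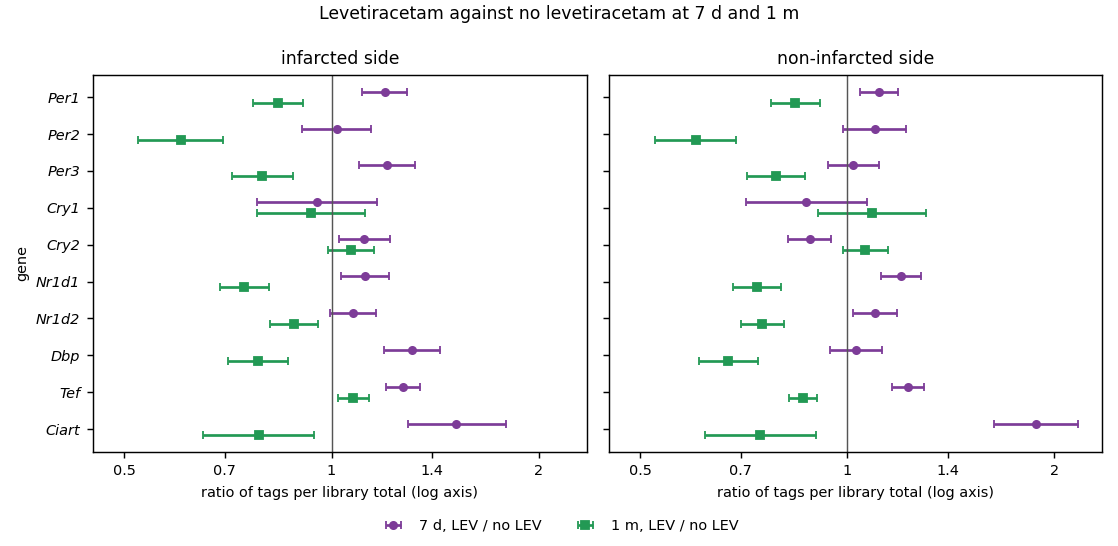
Ratio of the level with LEV to that without (horizontal, log axis) for each clock gene (vertical axis) on the infarcted side (left) and the non-infarcted side (right), with circles for 7 d, squares for 1 m and bars for exact 95% intervals of counting error. For Per2 at 1 m the ratio was 0.604 and 0.602, and for Ciart at 7 d it was 1.52 and 1.88.

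Whether the effect of LEV differed between the times was tested as an interaction over the 8 libraries of 7 d and 1 m, with side as a factor and 3 residual degrees of freedom. This test was added after the values were seen. It called 0 of the 10 clock genes by limma and 4 of 16228 genes in all, or 0.0246%. The estimates were -1.08 for Ciart (SE 0.22, limma adjusted p 0.162), -0.78 for Per2 (SE 0.14, limma adjusted p 0.126) and -0.67 for Dbp (SE 0.15, limma adjusted p 0.182). Of the estimates, 8 of 10 were below 0, with Cry1 at 0.13 and Cry2 at 0.10 above it, and the median was -0.47 against -0.03 for all genes. At an unadjusted p below 0.05 the 8 passed, as did 13.7% of all genes.

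After withdrawal, the libraries of 2 m were set against those of 1 m with LEV, 1 library against 1 and with no test. Past 1.5-fold, 1 of 10 clock genes was higher on the infarcted side, where 15.1% of all genes were so much higher and 6.42% so much lower. This was Ciart, at 1.53 (95% interval 1.30 to 1.82), and under TMM scaling it was no longer past 1.5-fold. On the non-infarcted side 0 of 10 were past it, with 12.9% of all genes higher and 10.5% lower. Short of that limit, Nr1d1 stood at 1.45 (1.34 to 1.56) on the infarcted and 1.11 (1.02 to 1.2003) on the non-infarcted side. Per1 stood at 1.36 (1.26 to 1.47) and 1.15 (1.07 to 1.25), and Per2 at 1.28 (1.11 to 1.48) and 1.195 (1.04 to 1.38). Tef was below its level of 1 m with LEV, at 0.888 (0.846 to 0.932) and 0.899 (0.857 to 0.944). Since no library of 2 m without LEV was analysed, withdrawal and the later time cannot be told apart.

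The members' levels over the 11 libraries were compared by Pearson's r of log2(CPM + 1), as a description, since the libraries share states, sides and depth. Of the 45 pairs, 27 were positive, with a median of 0.43. The extremes were 0.88 for Per1 with Ciart and -0.77 for Per2 with Cry1. Among Per1, Per2, Per3, Nr1d1, Dbp and Ciart, grouped after their values were seen, all 15 pairs were positive, from 0.65 to 0.88. These 6 are the members that had 1 m with LEV as the lowest state on each side, so that positive values among them are partly built in. Nr1d2, not among the 6, was positive with each of them, from 0.23 with Per1 to 0.59 with Per3. Cry1 was negative with all 6, and Cry2 and Tef with all but Nr1d1.

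**Figure D5:**
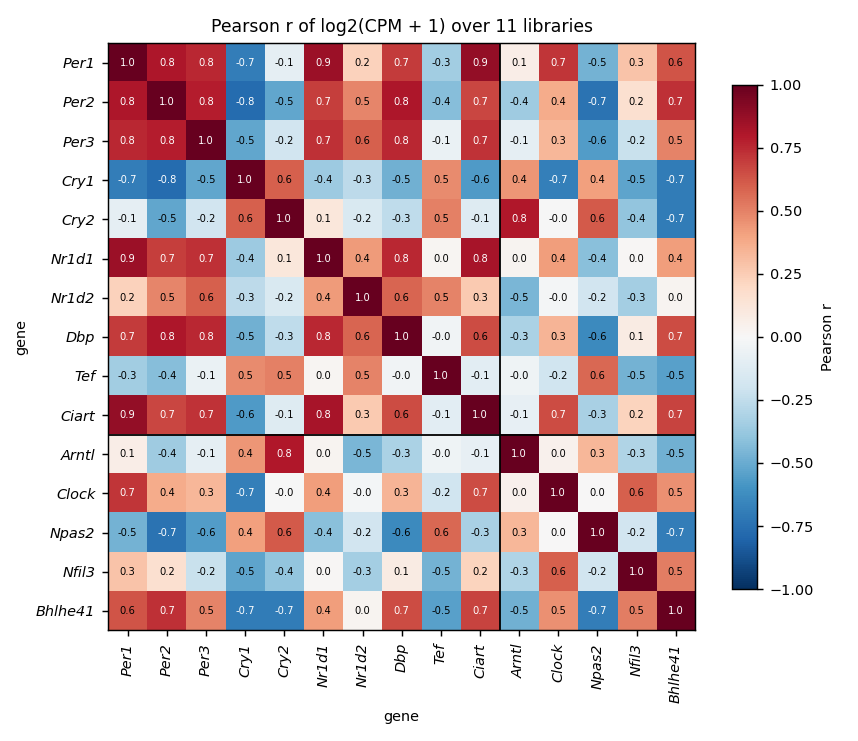
Pearson's r of log2(CPM + 1) over the 11 libraries between the 10 clock genes and, beyond the black lines, 5 activators and regulators, on a colour scale from -1 to 1. Per1, Per2, Per3, Nr1d1, Dbp and Ciart, grouped after their values were seen, are positively correlated with each other (0.65 to 0.88). Cry1 is negatively correlated with Per2 (-0.77).

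In the activator arm of the loop, of 11 activators and their regulators, 3 were called between states by limma, beside 27.0% of all genes, with a median span of 0.51 against 0.46 for all genes. Arntl itself lay between 31.5 and 47.9 CPM, Clock between 64.0 and 89.6 CPM and Npas2 between 47.8 and 68.9 CPM, and none of these was called. Npas2 was highest at 1 m with LEV (68.9 and 67.7 CPM), where Per2 was lowest, and its r with Per2 was -0.74. The 3 called were Bhlhe41 and Bhlhe40, E-box repressors known as DEC2 and DEC1, and Hlf, a PAR bZIP factor related to Dbp and Tef. Bhlhe41 ran from 34.5 CPM at 1 m with LEV to 71.3 CPM at 7 d with LEV (span 0.80, limma adjusted p 0.00403), an order like that of Per2, with r of 0.73. Unlike the 10 members, Bhlhe41 was called between the sides, higher on the infarcted side by 0.25 (limma adjusted p 0.0337). Bhlhe40 ran from 56.1 CPM at 1 m with LEV to 117 CPM at 7 d with LEV (span 0.74, limma adjusted p 0.0299).

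Hlf went opposite to Dbp at 1 m with LEV. It held 247 CPM on the infarcted and 259 CPM on the non-infarcted side there, above the 114 to 178 CPM of the other 9 libraries. Its span between states was 1.00 (limma adjusted p 0.0110), and it was the only gene of this list called for LEV, higher on the infarcted side by 0.65 (limma adjusted p 0.0176). At 1 m minus 7 d, Hlf rose by 0.45 on the infarcted (limma adjusted p 0.0233) and by 0.50 on the non-infarcted side (limma adjusted p 0.0378).

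A further list held 12 genes of clock protein kinases, ubiquitin ligases and other partners. Of the 12, 3 were called between states, near the 27.0% of all genes. These were Csnk1e, a casein kinase that phosphorylates PER proteins (39.1 to 90.2 CPM, span 0.90, limma adjusted p 0.00603), Gsk3b (87.2 to 167 CPM, span 0.91, limma adjusted p 0.0163) and Nono (42.9 to 62.2 CPM, span 0.43, limma adjusted p 0.01999). The median span of this list was 0.32, below the 0.46 of all genes. Csnk1e and Gsk3b were higher at 1 m than at 7 d on each side, Csnk1e by 0.48 and 0.71 and Gsk3b by 0.50 and 0.73 on the log2 scale, with limma adjusted p from 0.00407 to 0.0187. Csnk1d, the other casein kinase of the loop, named after its values were seen, lay at 93.0 to 104 CPM.

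Of 7 output genes that are rhythmic in many tissues, 4 were called between states by limma, beside 27.0% of all genes, and they did not share 1 order. Tsc22d3, which is also induced by glucocorticoids, ran from 35.2 CPM at 1 m with LEV to 85.6 CPM at 7 d (span 1.03, limma adjusted p 0.00214). Usp2, an ubiquitin protease under E-box control, ran from 35.6 CPM at 7 d to 62.8 CPM at 1 m with LEV (span 0.57, limma adjusted p 0.0226). Hspa5, a chaperone of the endoplasmic reticulum, was highest at 7 d, and Por, a reductase, at 2 m.

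Transcripts that respond to other inputs of Per1 and Per2 differed between the states as well, while the inputs themselves were not measured. Of 10 glucocorticoid response genes 7 were called by limma, and of 14 immediate early genes 6 were, beside 27.0% of all genes. From 7 d to 1 m, 5 and 5 of the 10 glucocorticoid genes were called lower on the infarcted and non-infarcted side, and 3 and 8 of the 14 immediate early genes, with none called higher. Of all genes 11.4% were called lower on the infarcted and 6.45% on the non-infarcted side. Sgk1, a glucocorticoid target, fell by 0.96 on each side, with limma adjusted p of 0.000628 or less. Arc, a gene of neuronal activity, fell by 0.44 on the infarcted side (limma adjusted p 0.0258) and by 0.68 on the non-infarcted side (limma adjusted p 0.0143). Within the glucocorticoid list the order was not common to all, since the metallothioneins Mt1 and Mt2, which also respond to metals, were highest at 1 m with LEV on the infarcted side (1352 and 762 CPM), where Tsc22d3 was lowest. At 1 m Fkbp5 held 29.7 and 27.5 CPM with LEV on the infarcted and non-infarcted side, against 20.0 and 20.8 CPM without. Sgk1 and Cdkn1a were also higher with LEV on both sides then. Tsc22d3, Zbtb16 and Errfi1 were lower on both, and Hif3a and Pdk4 differed in sign between the sides. The part of these genes' inputs in the Period gene levels was not tested.

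The search for similar genes used Pearson's r across the 11 libraries and left out the 10 members. Among 10928 other genes with a mean of at least 10 CPM, those most like Dbp were Brpf1 (0.91), Rere (0.89), Arid4a (0.85), Emx2 (0.85) and Plcg1 (0.85). Most opposite were Atpsckmt (-0.91), Emc7 (-0.90), Tmem128 (-0.89), Bnip3 (-0.88) and Tra2b (-0.88). The mean of the 10 members' standardized levels was most like Kif1a (0.95), Ccdc92 (0.93), Mapk4 (0.91), Unk (0.90) and Far2 (0.89). It was most opposite to Cdkn1b (-0.90), Rbx1 (-0.89), Caap1 (-0.87), Tmem128 (-0.87) and 2210016F16Rik (-0.85). These are values over libraries that share states and sides. None of the leading genes is in the other clock gene lists used here, and the members themselves could not appear.

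The 10 genes lie apart from each other in the mouse genome (GRCm38, GENCODE M21). Per1 is at chr11:69095217-69109960 and Nr1d1 at chr11:98767932-98775333. Per2 is at chr1:91415982-91459324, Ciart at chr3:95878503-95882251 and Dbp at chr7:45705088-45710203. Of the members 5 overlap a neighbouring gene, of which Thra over Nr1d1, Sphk2 over Dbp, Gm17597 over Tef and C920021L13Rik over Ciart are on the opposite strand, and Camta1 shares the strand of Per3. Whether tags were counted by strand is not given in the sources used here. Over the 11 libraries, r between a member and its overlapping neighbour was -0.72 for Dbp with Sphk2, 0.33 for Nr1d1 with Thra, 0.15 for Per3 with Camta1, -0.14 for Tef with Gm17597 and -0.13 for Ciart with C920021L13Rik.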

How the data were processed

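The authors deposited 1 table of CAGE expression in CPM, tags scaled to the library total, for 22377 genes in 11 libraries. Per the submitters' processing notes, tools included BWA 0.7.17, HISAT2 2.0.5 and DESeq2 1.20.0 on GRCm38; their roles are not given in the sources used here. All CPM values (100%, within 0.01 tag) gave whole tags, which were recovered for the intervals and for edgeR. Differences were tested by limma 3.58.1 (mean-variance trend) on log2(CPM + 1) for genes with a mean of at least 1 CPM, adjusted by Benjamini-Hochberg over all genes tested. edgeR 4.0.16 served as an alternative. The fits were also run on simulated tags drawn independently for each library, which cannot show how shared mice or collection hours affect them. A change on this scale understates that of low genes. The members and all gene lists were chosen with earlier results of these data known. All members are named, with Arntl, Clock, Npas2, Nfil3 and Bhlhe41 and, of each list, up to 4 genes with the smallest p between states. Intervals cover counting error only.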

Additional observations from a re-analysis of the deposited data

Results flagged for a closer look

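For 7 clock genes the difference between LEV and no LEV was above 0 at 7 d and below 0 at 1 m on both sides of the brain, which set these genes apart for a closer look. The values are log2(CPM + 1) differences, averaged over the sides. Ciart was higher with LEV by 0.72 at 7 d and lower by 0.36 at 1 m (-0.36), so that the times differed by 1.08. Per2 was at 0.08 and -0.70, a gap of 0.78, and Dbp at 0.21 and -0.45, a gap of 0.67. Nr1d1 was at 0.21 and -0.42, with a gap of 0.63, and Per3 at 0.15 and -0.33, with a gap of 0.48. For Per1 the values were 0.20 and -0.25, 0.45 apart, and for Nr1d2 they were 0.12 and -0.29, 0.41 apart. The interaction test by limma called none of the 7, with adjusted p from 0.126 for Per2 to 0.292 for Per1. The same change of sign on both sides was found for 10.9% of all genes, and the reverse change for 6.16%.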

How the results depend on the processing

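The labels give no replicate numbers to pair samples by; the side comparison sets the sides of a state against each other through its state factor. Of the results on single members under alternatives, 393 kept their direction and their side of the threshold, 15 gained and 24 lost it, and 8 changed sign. Between states, leaving out 1 state in turn gave 1 to 7 members called. On the infarcted side the count lower or higher with time was 0 with a pseudocount of 0.25, with no expression limit, with edgeR and with no LEV factor, and 2 with a mean of at least 5 CPM and with centring on the median gene. On the non-infarcted side it was 1 with no expression limit and with no LEV factor, and 5 with TMM factors. After withdrawal, TMM factors left 0 members past 1.5-fold on the infarcted side. The side estimate of Dbp became -0.034 with centring and -0.0099 with TMM, and leaving out 1 state in turn gave -0.040 to 0.093 for Dbp, -0.19 to 0.010 for Nr1d1 and -0.16 to 0.015 for Ciart. With time on the infarcted side, Nr1d1 became 0.065 with centring and 0.010 with TMM, and Nr1d2 0.038 with centring. Centring moved the median gene by up to 0.11 (infarcted, 2 m). Over all genes, 4377 were called between states, against 2246 with no side factor and 803 without 1 m LEV. Between the sides 1136 were called, against 732 with a mean of at least 5 CPM, 245 with no state factor, and 71, 103 or 161 without 1 m, 7 d or 7 d LEV. For time on the infarcted side 2732 became 1547 with no LEV factor. For LEV the 85 genes on the infarcted side became 0 to 209, and the 1 on the non-infarcted side 0 to 9. Against naive cortex 0 to 2 genes were called, and for LEV by time edgeR called 2 in place of 4. Limits: with 1 library per group, none of these tests measures the spread between mice, and the time and LEV tests have 1 residual degree of freedom.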

Other observations

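Among the regulators of the clock that were not described above, Rorb, a ROR-family receptor that competes with REV-ERB for the RORE, stood at 9.96 CPM in the non-infarcted library of 2 m after withdrawal, against 36.2 to 71.3 CPM in the other 10 libraries. Rora, of the same family, was at 47.0 CPM in that library and between 48.0 and 67.6 CPM elsewhere. The same library was also the lowest for Mt2 (59.2 CPM) and Sgk1 (38.7 CPM) and had the lowest share of tags in genes (92.3%). Whether its tissue differed was not tested. Nfil3, a bZIP repressor that competes with Dbp for the D-box, ran from 5.10 to 10.6 CPM and was at 9.32 and 8.33 CPM at 1 m with LEV on the infarcted and non-infarcted side, against 5.601 and 6.03 CPM at 1 m without it. The ratios were 1.66 (95% interval 1.27 to 2.20) and 1.38 (1.06 to 1.82). The regulators in this paragraph were picked after their values were seen, and no test of them is given.

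In the rhythmic output list, Tspan4 was the only gene called between the sides by limma, higher on the infarcted side by 0.75 (adjusted p 0.0266) and lower at 1 m than at 7 d there by 1.09 (-1.09). Of the 8 heat shock genes, 2 were called between states by limma, near the 27.0% of all genes. Hspa8 ran from 861 CPM at 1 m with LEV to 1547 CPM at 7 d (span 0.68, adjusted p 0.00783).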
